A study of Mus musculus with 18 samples.

Results

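Hox proteins bind DNA together with homeodomain proteins of the TALE class, named for the 3 amino acids that lengthen the loop between the first and the second helix of their homeodomain. The present report follows 8 mouse genes of this class, Meis1, Meis2, Meis3, Pbx2, Pbx3, Pbx4, Pknox1 and Pknox2, through every differential expression table of a study of spinal motor neurons (MNs). They were chosen by their names, as members of the Meis, Pbx and Pknox families, and each has a row among the 27179 genes of the tables by stage and region. In the mutant table, which lists 35729 RefSeq transcripts, 30 transcripts belong to the 8 genes, and 7 of these have reads.

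A total of 18 samples of MNs sorted from mouse spinal cord were measured by RNA-Seq. Brachial MNs, which innervate the forelimb, were taken from embryos at e12.5 (called e12 here) as 6 control samples, whose genotype the labels give as wildtype, and as 3 samples in which Hoxc8 was deleted early (Hoxc8 MNΔearly). At postnatal day 8 (p8), wildtype MNs were taken from the brachial, the thoracic and the lumbar cord, with 3 samples of each. Embryonic cells were sorted by the Mnx1-GFP transgene, and postnatal cells by the Ai9 reporter, which marks any cell in which Cre has been made from the Chat locus. The reporter, the age and the sorting therefore changed together between e12 and p8 and cannot be told apart. In Hoxc8 MNΔearly embryos a floxed Hoxc8 allele is recombined by Olig2-Cre, which acts in the progenitors of MNs and of other cells of the same domain, and the methods name Hoxc8 fl/fl animals as controls. Several cords were pooled for each replicate at both ages.

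Pbx proteins bind DNA next to a Hox protein through a short peptide of the latter, and the pair reads a composite site that the Hox protein alone binds weakly. Meis and Pknox (Prep) proteins bind Pbx through their amino-terminal region, keep it in the nucleus and can contact a site of their own, TGACAG. In the embryonic cord, Hox proteins and these partners together take part in assigning MNs to columns and pools.

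The loop is encoded by codons for proline, tyrosine and proline. The stretch of coding sequence around them is shown because it is the feature that defines the 8 genes as a class. It was read from GENCODE transcripts (release vM21, GRCm38), 5′ to 3′ on the coding strand, with 60 bases for each gene and the 9 bases of the loop codons in capitals.

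Meis1: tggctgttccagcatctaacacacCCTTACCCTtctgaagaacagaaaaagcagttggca
Meis2: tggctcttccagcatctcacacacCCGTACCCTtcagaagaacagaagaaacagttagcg
Meis3: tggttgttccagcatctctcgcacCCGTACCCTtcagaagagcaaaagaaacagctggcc
Pknox1: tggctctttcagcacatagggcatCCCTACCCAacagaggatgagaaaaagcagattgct
Pknox2: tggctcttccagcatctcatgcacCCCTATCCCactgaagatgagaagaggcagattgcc
Pbx2: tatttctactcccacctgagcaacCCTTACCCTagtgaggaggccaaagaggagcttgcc
Pbx3: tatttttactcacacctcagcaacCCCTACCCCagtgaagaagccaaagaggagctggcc
Pbx4: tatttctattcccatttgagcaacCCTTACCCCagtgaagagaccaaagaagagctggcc

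Within a family, 46 to 52 of the 60 bases were identical in the 7 pairs. Between Meis and Pknox genes 39 to 46 bases were identical (6 pairs), and between a Pbx gene and a gene of another family 31 to 37 (15 pairs). The gene structure splits in the same way. In the 3 Pbx genes the window lies within exon 5, at chr17:34594631-34594690 (plus strand) for Pbx2, at chr2:34204807-34204866 (minus strand) for Pbx3 and at chr8:69866517-69866576 (plus strand) for Pbx4. In all 3 Meis and both Pknox genes an intron interrupts it at the same place, after the first 21 bases, which is 3 bases before the capitals. For Meis2 the 2 pieces are at chr2:116000131-116000151 (exon 8) and at chr2:115921710-115921748 (exon 9), and for Pknox2 at chr9:36909629-36909649 (exon 10) and at chr9:36895349-36895387 (exon 11), all on the minus strand.

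The whole genes lie on 6 chromosomes, with Meis2 and Pbx3 both on chromosome 2 and Pbx2 and Pknox1 both on chromosome 17. Their exons, counted once over all annotated transcripts, add up to 2.217 kb for Pbx4 at the short end and 12.043 kb for Meis2 at the long end. Exons of other genes overlap 1925 bases of Meis1 (Gm37818 and the antisense gene Gm16140), 227 bases of Pbx2 (Gpsm3, same strand) and 155 bases of Pknox1 (AC166172.4, antisense). Whether reads were counted by strand is not given in the sources used here, so reads from these stretches cannot be assigned with certainty.

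The tables hold no value per sample. For each gene they give the base mean, which is the mean over the compared samples of the normalized read count (reads divided by the size factor of the library), and a log2 fold change with its standard error (SE) and p-value. Features with a single read in the whole table do show what 1 read was worth, since they share 1 base mean per library. In the table of e12 over p8, these values gave 6 libraries at e12, with size factors of 1.32 to 1.71, and 3 at p8. A size factor near 1.45 and one near 0.963 were found at p8, while the third was 0.0838, so that 1 read of that library counted as 11.9 normalized counts. This last value rests on 11 genes, and the low brachial value of the regional tables rests on 11 genes as well. There, each region had 1 such library, with size factors of 0.16 in brachial, 0.228 in thoracic and 0.509 in lumbar against 1.7 to 2.74 in the other 6 libraries. The low library of each region could not be left out, because no value per sample is given, so every p8 value below includes it and its part in the results was not tested. In the mutant comparison the 3 control and 3 Hoxc8 MNΔearly libraries were even, at 0.91 to 1.17.

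**Figure D1:**
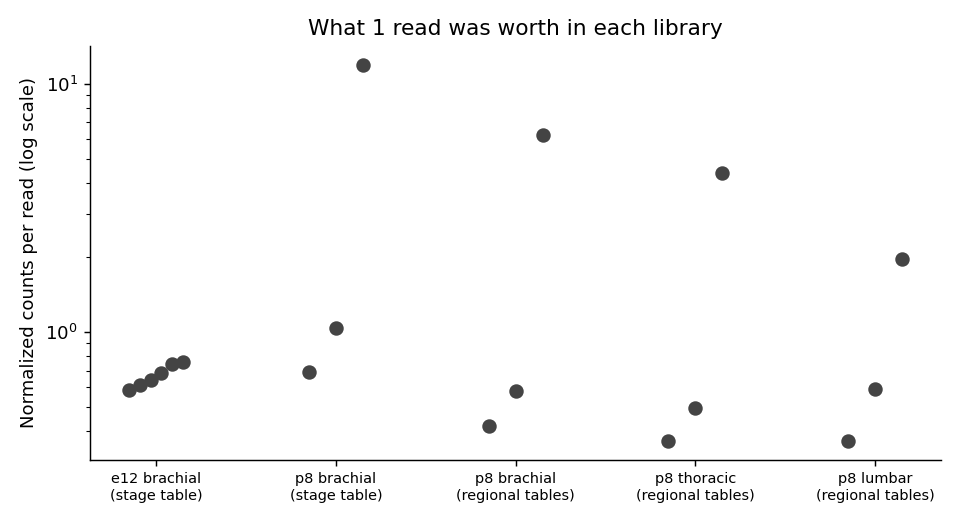
Normalized counts that 1 read was worth in each library (log scale), by group, in the table of e12 over p8 (left pair of columns) and in the regional tables (right 3 columns). The points of a group are its libraries in order of value. In every p8 group 1 library lies above the other two, at 11.9 for brachial in the table of e12 over p8.

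The study first compared brachial MNs at e12 and at p8, to find which genes of embryonic MNs are still expressed after birth. All 8 TALE genes had a higher estimate at e12 than at p8. Of the 7 with a p-value, 5 were higher at e12 at an adjusted p under 0.05 (DESeq2's Wald test, Benjamini-Hochberg over all genes), namely Meis1, Meis2, Meis3, Pbx3 and Pknox2, and none was higher at p8. Over all 18787 genes tested, 24.8% were called higher at e12 and 23% higher at p8. The median log2 fold change of the 8 genes was 3.28, beside −0.02 for all genes whose base mean was 10 or more.

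Levels are given below as normalized read counts, obtained by splitting each base mean between 6 libraries of e12 and 3 of p8 according to the fold change. They have no SD, and the error is that of the fold change. Levels of different genes are compared only per kb of exon. That length counts the exons of all annotated transcripts and not those of the transcripts expressed, so shares and orders between genes depend on it. In bulk samples, fewer cells that express a gene and less RNA per cell cannot be told apart.

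Meis2 had the largest change of the 8 genes. Its level was 5968 at e12 and 66.1 at p8. The log2 fold change of 6.50 had a 95% interval of 5.77 to 7.22 (adjusted p = 4.73e-66, DESeq2), which lies above the interval of each of the other 7 genes. At its mean p8 level, Meis2 would have given about 95.8, 63.7 and 5.54 reads in the 3 p8 libraries, so the p8 level rests on few reads in 1 of them.

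The other 2 Meis genes were called higher at e12 as well. Meis3 had a level of 3072 at e12 and 132 at p8, a log2 fold change of 4.54 (interval 3.59 to 5.49, adjusted p = 1.97e-19, DESeq2). Meis1, which is also known as a cofactor of Hox proteins in blood cells, had 2354 and 204, a log2 fold change of 3.53 (2.66 to 4.39, adjusted p = 2.07e-14, DESeq2). Summed over the family, the level was 11394 at e12 and 402.7 at p8. Because Meis2 fell further than the other two, its share of the family's level per kb of exon was 29.4% at e12 and 8.25% at p8. The share of Meis1 was 13.2% and 29.2%, and Meis3 held the largest share at both ages, with 57.4% and 62.6%. These shares depend on the exon lengths used, which were 12.043 kb for Meis2 and 3.173 kb for Meis3.

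The Pbx family was less uniform. Pbx3 had a level of 5054 at e12 and 693 at p8, the highest of the family per kb of exon at both ages, and its log2 fold change was 2.87 (1.99 to 3.74, adjusted p = 1.06e-09, DESeq2). Pbx2 had 2485 and 303, a log2 fold change of 3.04 with an interval of 1.71 to 4.36. However, no p-value is listed for it, as for 13.5% of the genes whose base mean was 10 or more. It is counted as neither called nor uncalled. By default DESeq2 withholds the p-value of a gene with an outlying count in a sample. No value per sample is given to look at this, so the level, interval and rank of Pbx2 carry that doubt. Pbx4 had a level of 197 at e12 and 120 at p8, and its log2 fold change of 0.71 did not pass the test (interval −0.74 to 2.15, adjusted p = 0.483, DESeq2).

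The 2 Pknox genes differed from each other. Pknox2 had a level of 1781 at e12 and 135 at p8, a log2 fold change of 3.72 (2.48 to 4.96, adjusted p = 2.51e-08, DESeq2). Pknox1 had 1055 at e12 and 694 at p8, and its log2 fold change of 0.60 did not pass the test (−0.75 to 1.96, adjusted p = 0.531, DESeq2). The intervals of the 2 genes do not overlap. Per kb of exon, Pknox1 held 46.9% of the family's level at e12 and 88.4% at p8.

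**Figure D2:**
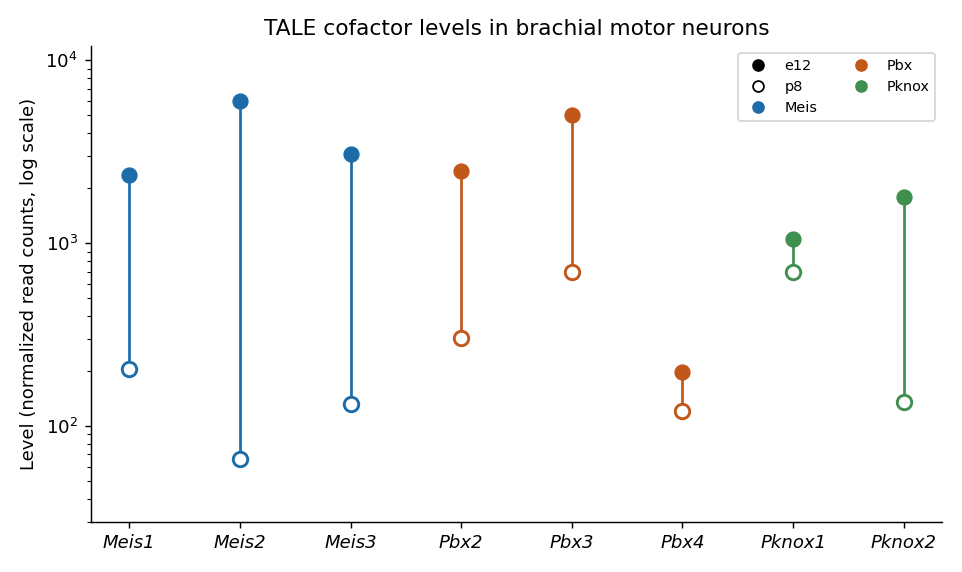
Level of each TALE gene in brachial MNs at e12 (filled) and p8 (open) in normalized read counts on a log scale, coloured by family, computed from the authors' base mean and fold change, with no SD. The line is longest for Meis2, which goes from 5968 to 66.1, while Pknox1 goes from 1055 to 694.

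**Figure D3:**
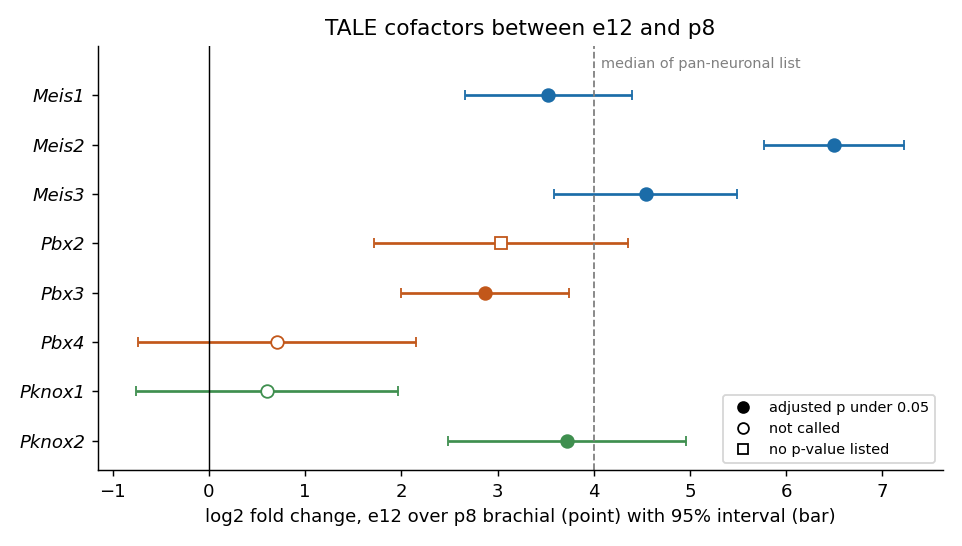
Log2 fold change of e12 over p8 for each TALE gene with its 95% interval. Filled circles passed an adjusted p under 0.05, open circles did not, and the open square (Pbx2) has no p-value. The dashed line marks 4.0, the median of the pan-neuronal list, with only Meis2 lying wholly above it.

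The order of the genes by level per kb of exon changed between the ages. At e12 it was Meis3 (968 normalized counts per kb), Pbx3 (827), Pbx2 (683), Meis2 (496), Meis1 (224), Pknox2 (172), Pknox1 (152) and Pbx4 (88.7). At p8 it was Pbx3 (113), Pknox1 (100.1), Pbx2 (83.3), Pbx4 (54.3), Meis3 (41.6), Meis1 (19.4), Pknox2 (13.1) and Meis2 (5.49). The spread of the single samples is not given, so it cannot be said which neighbours in either order differ beyond it. Pbx4 and Pknox1, the last and the seventh at e12, were the fourth and the second at p8.

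Marker genes of other cell types differed between the ages too, although the postnatal cells had been sorted by tdTomato, the protein of the Ai9 reporter. Of 12 oligodendrocyte genes, all were higher at p8 (median −11.81 on the log2 scale), and their summed level made up 0.0105% of all normalized counts at e12 and 43.8% at p8. All 10 microglia genes, 7 of 8 endothelial genes and 5 of the 6 astrocyte genes with a p-value were higher at p8 as well. The astrocyte gene Slc1a2, which has no p-value, was estimated the other way, at 5604 and 514 (log2 fold change 3.45). The summed level of the astrocyte list was 6781 at e12 and 154932 at p8. Of 8 neural progenitor genes, 4 were higher at e12. Of 15 genes on a pan-neuronal list, 13 were higher at e12 and none at p8. Their median was 4.0, and their summed share was 1.37% at e12 and 0.151% at p8. The list includes Dcx (log2 fold change 6.66) and Tubb3 (5.80), and whether its genes keep 1 level per neuron between the ages was not tested. Of 12 MN genes, 9 were higher at e12 and none at p8, and the summed level was 13157 at e12 and 2347 at p8. Lhx3 and Lhx4, which are MN determinants of the embryo, were at 0 in all p8 libraries of the regional tables. All 10 genes of excitatory interneurons and all 6 of inhibitory interneurons with a p-value were higher at e12. The part of these differences in the values of the TALE genes was not tested.

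Measured against the neuronal genes, the picture of the TALE genes changed. When fold changes were re-centred on the median of the pan-neuronal list, Meis2 was still higher at e12, with a log2 fold change of 2.50 (1.77 to 3.23, adjusted p = 4.25e-11). Meis3 (0.54), Pknox2 (−0.28) and Meis1 (−0.47) did not pass the test, and their intervals included 0. Pbx3 (−1.13, adjusted p = 0.0158), Pbx4 (−3.29, adjusted p = 1.46e-05) and Pknox1 (−3.40, adjusted p = 1.75e-06) were then called in the other direction, that is, they fell less between e12 and p8 than the middle gene of the neuronal list. On this scale 674 genes were called higher at e12 and 13534 lower. The SE of the list's median is not part of these intervals. Genes of the list may themselves change per neuron with age, so this scale does not correct for neuron content alone.

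Among Hox genes, the partners of these proteins, most of groups 1 to 8 moved in the direction of the Meis genes. Of Hox groups 1 to 3, 7 of 8 genes were higher at e12 (median 5.22), as were 14 of 15 of groups 4 to 8 (median 5.85). Of groups 9 to 13, 4 of the 13 genes that had reads were higher at e12, and their median was 0.10. Over all genes tested, 24.8% were called higher at e12. No Hox gene on these lists was called higher at p8. Hoxc8, the gene deleted in the mutants, had a level of 9223 at e12 and 264 at p8. The labels do not say from which brachial segments each of the 6 e12 samples came, so Hox levels at the 2 ages may stand for different segments.

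Of 9 other TALE homeodomain genes, which belong to the Irx, Tgif and Mkx families and are not known for binding Hox proteins as cofactors, 5 were higher at e12 (Irx1 to Irx4 and Tgif2) and 1 at p8. Those with the highest base means were Tgif1, a repressor in TGF-β signalling, with 106 at e12 and 990.5 at p8 (log2 fold change −3.22, SE 0.82, adjusted p = 0.000274), Irx2 with 471 and 24.1 (4.29, SE 0.92, adjusted p = 1.31e-05) and Irx1 with 417 and 3.66 (6.83, SE 0.65, adjusted p = 3.03e-24). Irx genes pattern the early neural tube. Tgif1 was the only gene of this list called higher at p8.

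Proteins that bind Pbx and affect where it resides in the cell went both ways. Pbxip1, which encodes a Pbx-interacting protein that blocks the binding of Pbx and Hox to DNA, had a level of 179 at e12 and 2441 at p8, a log2 fold change of −3.77 (−5.27 to −2.26, adjusted p = 4.18e-06). The non-muscle myosin heavy chain gene Myh9 was higher at p8 as well (949 and 4889, −2.36, adjusted p = 0.0121), and Myh10 was higher at e12 (8394 and 224, 5.23, adjusted p = 5.98e-27). Myh9 and Pbxip1 are also expressed outside neurons, and most of the glial genes above were higher at p8 in the same samples. The part of such cells in these values was not tested.

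The second question was whether Hox genes are also expressed after birth in MNs of other regions of the cord, for which p8 MNs of 3 regions were compared. No TALE gene was called by DESeq2's test in any of the 3 regional tables, in which 0.261% (brachial), 0.011% (thoracic) and 0.0219% (lumbar) of all genes were called at an adjusted p under 0.05. The 3 tables use the same 9 samples, so their values for a gene are not independent. With the SE of these tables, a TALE gene would have needed a log2 fold change between 2.09 (Pbx3) and 4.42 (Pknox2) to be called in the brachial table, so smaller differences were not detectable.

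Meis3 came nearest. Its level was 74.5 in brachial, 194 in thoracic and 170 in lumbar MNs, and the log2 fold change of brachial over the other regions was −1.31 (−2.60 to −0.02), which passed no adjusted threshold (adjusted p = 0.75, DESeq2). Its unadjusted p of 0.0471 was the only one under 0.05 among the 8 genes in the 3 tables. Pknox1 was estimated in the other direction, with 378 in brachial, 191 in thoracic and 150.5 in lumbar MNs, and a brachial log2 fold change of 1.18 whose interval ran from −0.66 to 3.02.

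Meis2 had 35.7, 72.2 and 44.3 normalized counts in brachial, thoracic and lumbar MNs, and Meis1 had 114, 145 and 180. For each Meis gene the brachial level was the lowest of the 3, as it was for Pbx3, Pbx4 and Pknox2 below. None of these genes passed the test of brachial against the other regions. The mean brachial level of Meis2 corresponds to 5.72 reads in the smallest library of that region.

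Pbx3 had 378 in brachial, 392 in thoracic and 447 in lumbar MNs, and its 3 intervals were the narrowest of the 8 genes (−1.22 to 0.92 for brachial). Pbx2 had 161, 93.7 and 101 and Pbx4 had 67.4, 88.4 and 103 in the same order. Pknox2 had 74.5, 86.3 and 81.1, with the widest intervals (−2.43 to 2.07 for brachial). The highest regional level was between 1.16 times (Pknox2) and 2.60 times (Meis3) the lowest. No interval here measures that difference, since each sets 1 region against the others together. In those comparisons no gene passed an adjusted p under 0.05.

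**Figure D4:**
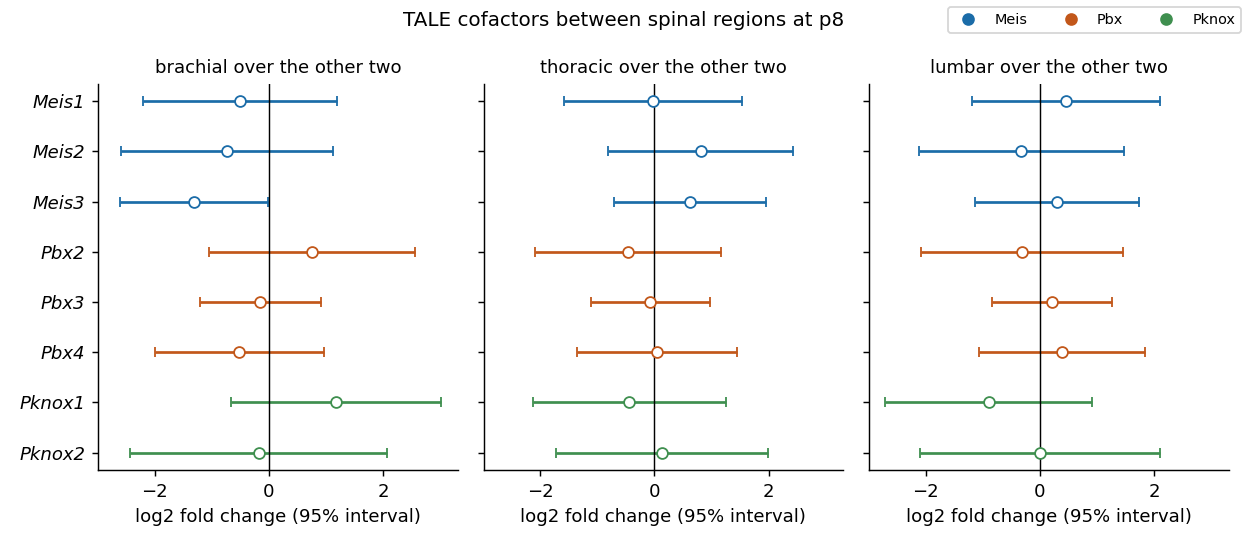
Log2 fold change of 1 region over the other two at p8, with 95% intervals, for each TALE gene and for brachial, thoracic and lumbar MNs. All intervals include 0 except that of Meis3 in the brachial panel (−2.60 to −0.02), and no gene passed an adjusted p under 0.05.

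No other TALE homeodomain gene was called in a regional table either. Of the Pbx-binding regulators, none was called, although Myh9 (log2 fold change 2.41, SE 0.87, adjusted p = 0.337) and Pbxip1 (2.36, SE 0.92, adjusted p = 0.454) had an unadjusted p under 0.05 in brachial MNs. Of the Hox genes on the 3 lists, 1 of groups 9 to 13 was called, Hoxa9, which was lower in brachial MNs (log2 fold change −4.05, SE 0.97, adjusted p = 0.0251), and none was called in the thoracic or lumbar table. The median brachial log2 fold change was −0.35 over the 8 TALE cofactors, −0.79 over Hox groups 1 to 3, −0.89 over groups 4 to 8, −1.57 over groups 9 to 13 and 0.02 over all genes whose base mean was 10 or more.

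The third question was which transcripts change in brachial MNs at e12 when Hoxc8 is deleted early. Hoxc8 itself (NM_010466, its single listed transcript) had a base mean of 19301 and a log2 fold change of control over mutant of 0.10 with an SE of 0.08. Its unadjusted p was 0.209 by DESeq2's test, so the deletion was not seen as a difference in this row. A count over the whole transcript does not resolve the exons removed by the floxed allele. Whether this bears on the value was not tested. The mutant table therefore does not itself show the loss of Hoxc8 in the samples behind the TALE values below. In this table the SEs were smaller where reads were fewer, with a median of 0.00683 for transcripts whose base mean was under 1 and 0.0707 where it was 10 or more, as happens where a model draws fold changes toward 0. In the table of e12 over p8 the same medians were 2.38 and 0.568, and in each regional table too the SE was larger where reads were fewer. The size of fold changes in the mutant table is therefore not set against that in the others.

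No TALE gene was called in the mutants. For the 7 with reads, the log2 fold changes lay between −0.08 (Meis2) and 0.05 (Pbx2), with SEs of 0.04 to 0.08, and the smallest unadjusted p was 0.28, for Meis2 (DESeq2). Over all 19634 transcripts tested, 0.871% had an unadjusted p under 0.05 and 0.0357% an adjusted one. How much of a gene these values covered differed. Pbx2 (NM_017463, base mean 3366, log2 fold change 0.05, interval −0.09 to 0.19) and Pbx4 (NM_001024954, 269, −0.07, −0.23 to 0.09) each have 1 listed transcript. Their base means were 135% and 137% of the e12 level in the table of e12 over p8. The 2 tables are scaled differently. A read counted as 0.853 to 1.10 normalized counts in the mutant table and as 0.586 to 0.755 at e12 in the other. Such percents include this difference and are not shares of a gene's reads.

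The other 6 genes have several listed transcripts, and their base means were a small share of the e12 level in the stage table or 0. Pbx3 had a base mean of 162 (NM_016768, log2 fold change −0.05), 3.21% of its e12 level in the stage table. Meis1 had 82.2 (NM_001193271, 0.01), which is 3.49%, and Meis2 had 112 (NM_001346047, −0.08), which is 1.88%, all of it on 1 of 15 listed transcripts. The base mean of Pknox2 (33.5, NM_001029838, 0.03) was 1.88% of the stage level, and the reads of Pknox1 (14, 1.33%) fell on a transcript that RefSeq lists as non-coding (NR_027493, −0.03).

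Meis3, with a level of 3072 at e12 in the stage table, is listed at 0 for all 5 of its transcripts, so its response to the loss of Hoxc8 was not measured. The same holds across the table. Among 6546 genes with 1 listed transcript and an e12 level of at least 100, the base mean in the mutant table was a median of 142% of that level (quartiles 133% and 151%). Among 3749 such genes with 2 or more listed transcripts it was 0.988% (0.0995% and 5.39%), and 16.1% of them had no read at all. How reads shared by several transcripts were counted is not given in the sources used here, and its part in these values was not tested. For Meis1, Meis2, Pbx3, Pknox1 and Pknox2 the comparison of control and mutant thus describes 1 transcript, with a small share of the gene's stage level, and not the gene.

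**Figure D5:**
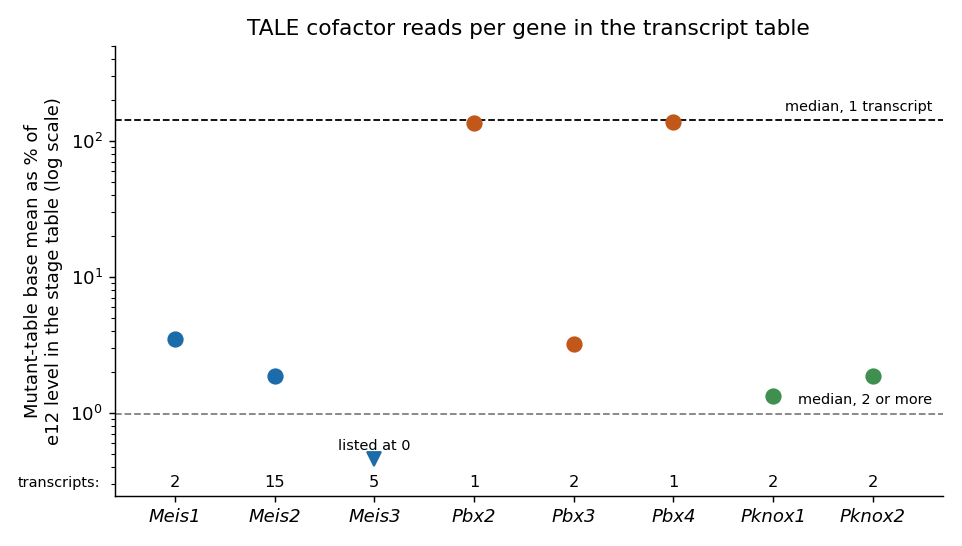
Base mean of each TALE gene in the transcript table of control and Hoxc8 MNΔearly as a percent of its e12 level in the table of e12 over p8 (log scale), with the number of listed transcripts under each gene. A read counted for more in the transcript table, so the percents are not shares of reads. Dashed lines mark the medians over all genes with 1 listed transcript (142%) and with 2 or more (0.988%). Pbx2 and Pbx4 lie near the first and 5 genes near the second, and Meis3 is listed at 0.

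At the same unadjusted threshold, none of the 7 other TALE genes with reads (Irx3 and Irx6 are listed at 0) and none of the genes of Hox groups 1 to 8 was called in the mutants, and 1 gene of groups 9 to 13 was, Hoxc9, higher in control (log2 fold change 0.17, SE 0.08). Of the 3 Pbx-binding regulators Myh9 was called, with an unadjusted p of 0.0237, a log2 fold change of 0.18 and an SE of 0.08. None of these passed after adjustment.

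Genes with a similar set of log2 fold changes over the 5 tables were sought among 29 Hox, other TALE and MN genes that had a base mean of 10 or more in every table. For Pbx3 they were Hoxd3 (Euclidean distance 0.53 on the log2 scale), Hoxa4 (1.07) and Hoxa7 (1.21), beside a median distance of 3.42 over the 29 genes. For Pknox2 they were Hoxa4 (0.66), Hoxd3 (0.76) and Irx2 (0.93), with a median of 3.09. Meis2 had no such near neighbour, its nearest genes being Hoxa2 (1.90), Hoxa6 (1.94) and Hoxb6 (2.05), with a median of 3.34. The distances are a description over comparisons that share libraries, and they were in effect set by the other 4 tables, since a named gene and its member differed by at most 0.09 in the mutant table.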

How the data were processed

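MNs were sorted from mouse cord, and the authors aligned unique single-end reads with HISAT to GRCm38 (mm10), ran featureCounts on the alignments and tested groups by DESeq2 in Galaxy (versions not given in the sources used here). They deposited 5 result tables. The base mean deposited by the authors is a signal, the mean normalized read count over the samples compared. The log2 fold changes and their SEs are the authors' model values as deposited, and each p-value is that of the deposited Wald test. No model could be refitted and no sample left out.

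From these, Benjamini-Hochberg adjustment ran over all features with a p-value, and calls were made under 0.05 (mutants: unadjusted). The 95% intervals are normal. Base means shared by at least 10 features with 1 read (100 in the mutant table) gave size factors, as 1 over the base mean times the number of samples. Levels per region were fitted by least squares over 3 tables. Symbols came from RefSeq (GRCm38.p6; 93% of genes and 99.2% of transcripts matched), using the row with the highest base mean, and exon lengths from GENCODE vM21.

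The 8 genes and all lists were chosen with earlier results of these data known. Named genes are the 8 genes, Hoxc8, up to 3 genes of a list with the highest base mean, and 3 nearest genes by fold changes. Irx3, Irx4 and Tgif2 were named after their values were seen, as were Lhx3 and Lhx4. Alternatives were other adjustments, re-centring, other transcripts and other weights. Simulated data were used to test the adjustment, the re-centring on the median of all features and the levels. At the SEs of the stage table (18787 features), 200 features were changed by 6 median SEs in either direction. Of these, 69% were called, and 4.17% of all calls were false. The real stage table had far more calls (24.8% and 23% of genes), and re-centring on the pan-neuronal list was not simulated. Tools were scipy 1.17.1, pandas 2.3.3, numpy 2.4.6 and matplotlib 3.10.9 under Python 3.11.15.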

Additional observations from a re-analysis of the deposited data

How the results depend on the processing

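No paired analysis was possible because the tables hold no value per sample, and for the same reason no replicate was left out and the p8 library with the low size factor stayed in every value. Of the 19 alternatives run on the counts of called TALE genes, 5 could not have changed the count of 0 in the mutants, since 3 adjust p-values that were not small and 2 choose among transcripts where each gene has at most 1 with reads. Of the other 14, 13 gave the same count (5 between e12 and p8, 0 in the regions and in the mutants), under the deposited adjusted p, a base mean of at least 10 and re-centring on all features. In the thoracic and lumbar comparisons the other adjustments could not have given a call either. The smallest unadjusted p of a TALE gene was 0.33 in each (DESeq2's Wald test), and adjustment cannot lower it. Re-centring on the median of the pan-neuronal list (4.0) left 4 calls, 1 higher at e12 (Meis2) and 3 higher at p8. The log2 fold change then had the other sign for Meis1 (−0.47), Pbx2 (−0.96), Pbx3 (−1.13), Pbx4 (−3.29), Pknox1 (−3.40) and Pknox2 (−0.28), and Meis3 (0.54) lost its call. Re-centring the thoracic table on its median of −0.14 turned the sign of Meis1 (0.12) and Pbx3 (0.068), neither called before or after. Weights of 3 in place of 6 samples at e12 gave Meis2 levels of 7914 and 87.7, and solving each region from its own table moved no level by more than 1.84%. At p8, the reads of 1 library per region limit what could be seen, and no interval covers the uncertainty of the size factors.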
